A study of Mus musculus with 2 samples.

Results

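The genes described here are 7 of the mouse genes for MHC class II antigen presentation: Cd74, H2-Aa, H2-Ab1, H2-Eb1, H2-DMa, H2-DMb1 and Ciita. They were taken by symbol from the 33696 gene rows counted in both libraries, and each was found once. The data come from 2 droplet libraries made with 10x Genomics 3′ chemistry, in which each transcript molecule counted carries a unique molecular identifier (UMI). One library came from Shank3-/- mice that received vehicle (labelled MOCK), and the other from Shank3-/- mice that received fluconazole, an antifungal azole, in their drinking water for 2 weeks. Shank3, a scaffold gene of excitatory synapses, is thus deleted in both groups, and there is no wild-type library here. The labels name the tissue only as brain, while the design text names the prefrontal cortex. The labels do not give the age, strain or number of mice behind a library. The design text speaks of cells and nuclei and the extraction text of nuclei alone, so each droplet is called a barcode. With 1 library per treatment there is no replicate, and no test of treatment can be made. Every interval below is at 95%, covers counting error only and treats UMIs as independent, so it is too narrow where few barcodes hold the UMIs.

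MHC class II molecules display peptides from ingested proteins to CD4+ T cells. An alpha and a beta chain pair in the endoplasmic reticulum around the invariant chain, which Cd74 encodes and which blocks the groove until the complex reaches an endosome. There the DM heterodimer exchanges the last fragment of the invariant chain for peptide. Ciita encodes the class II transactivator, a co-activator that does not bind DNA itself and is recruited by factors sitting on the X and Y boxes upstream of class II genes. Dendritic cells, B cells and some macrophages carry class II constitutively, whereas resting microglia, the resident macrophages of the brain parenchyma, carry little.

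The promoters of 4 members were in the RefSeq promoter table used (GRCm38.p6). The sequences of H2-Aa and H2-Eb1 are shown because they encode an alpha and a beta chain, and because both hold the paired elements on which Ciita is recruited. Each is the 250 bases upstream of the annotated start, 5′ to 3′ on the gene's own strand, with the X box (searched as CTNGNAAC) and then the Y box (TGATTGG) in capitals. H2-Aa is at chr17:34287824-34288073 on the minus strand, and H2-Eb1 at chr17:34305617-34305866 on the plus strand.
H2-Aa: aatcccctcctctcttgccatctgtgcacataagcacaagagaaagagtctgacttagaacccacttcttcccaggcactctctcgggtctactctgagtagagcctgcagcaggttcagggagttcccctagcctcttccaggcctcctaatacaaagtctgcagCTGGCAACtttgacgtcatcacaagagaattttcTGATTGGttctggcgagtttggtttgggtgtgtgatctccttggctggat
H2-Eb1: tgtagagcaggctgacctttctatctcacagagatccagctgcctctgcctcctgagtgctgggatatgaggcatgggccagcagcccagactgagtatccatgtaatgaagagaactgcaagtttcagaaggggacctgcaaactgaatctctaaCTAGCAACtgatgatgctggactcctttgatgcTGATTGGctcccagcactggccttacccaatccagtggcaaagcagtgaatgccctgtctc
In H2-Aa the X box, CTGGCAAC, began 84 bases before the start and the Y box 50 bases before it. In H2-Eb1 the X box, CTAGCAAC, began 94 bases before the start and the Y box 61 bases before it. H2-DMb1 held CTAGTAAC 97 bases and the Y box 63 bases before its start. The gap between the boxes was thus 26, 25 and 26 bases in H2-Aa, H2-Eb1 and H2-DMb1. Neither of the 2 annotated starts of H2-DMa searched, at 34122832 and 34125518, had a match in its window. Both lie inside the annotated span of the gene (34119541 to 34139101). Bases before any other start of H2-DMa were not searched, so an absence of the boxes from this gene is not read. Both strands were searched and the patterns do not overlap. Among 32851 promoter windows, 10.9% held an X box match and 7.23% a Y box match, while 30 windows (0.0913%) held an X box followed by a Y box within 50 bases on the same strand. Of 31 further pathway genes listed, 23 were in the table, and H2-Ob and Rfx5 held the pair. The patterns were written after these promoters had been read, and a match is a description of letters only.

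All 7 gene identifiers were found in GENCODE vM21, an annotation of the GRCm38 (mm10) genome. H2-Ab1 (chromosome 17, 34257689 to 34269419), H2-Aa (17, 34282744 to 34287823) and H2-Eb1 (17, 34305867 to 34316674) lie side by side in the MHC. H2-DMa (17, 34119541 to 34139101) and H2-DMb1 (17, 34153072 to 34160230) lie in the same region. Cd74 is on chromosome 18 (60803848 to 60812652) and Ciita on chromosome 16 (10480059 to 10528418). H2-Aa lies on the minus strand and the other 6 on the plus strand. Annotated genes on the opposite strand overlap H2-Eb1, H2-DMa (Brd2 among them) and Ciita. Whether counting used strand is not given in the sources used here, so reads could be shared there. On the same strand Mir5107 overlaps Cd74 and CR974462.3 overlaps H2-DMa, which strand would not separate.

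After filtering, 12892 vehicle and 10610 fluconazole barcodes were kept, with 67877915 and 68918276 UMIs and medians of 4327 and 5258 UMIs per barcode. Their median share of mitochondrial UMIs was 1.29% and 1.44%. The libraries have 45 barcode sequences in common. Clustering without the class II genes gave 31 clusters, and 13 marker-defined cell classes, none with fewer than 50 barcodes in a library, were compared. Striatal spiny neurons and neuroblasts were among these classes, although the design text names the prefrontal cortex. Levels are given as CPM, the UMIs of a gene after every class of each library was scaled to the same total. UMIs are counted at the 3′ end and are not scaled by length, so a level is compared between classes or libraries and not between genes.

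Class II transcripts lay in a small number of barcodes. Cd74, H2-Aa, H2-Ab1 and H2-Eb1, called the core genes, had 21680 UMIs together in the vehicle library and 11037 in the fluconazole library, or 319 and 160 CPM over all kept barcodes. In the vehicle library, 27 barcodes held 50% of the core UMIs, and in the fluconazole library 14 barcodes did. Barcodes with at least 10 core UMIs, called class II-rich, numbered 143 of 12892 in the vehicle library and held 86.0% of its core UMIs. In the fluconazole library 62 of 10610 were rich and held 82.0%. All 4 core genes, on whose sum these barcodes were chosen, had a UMI in 126 of the 143 and in 54 of the 62. A UMI of H2-DMa or H2-DMb1 was present in 112 (78.3%) and 46 (74.2%), and one of Ciita in 35 (24.5%) and 21 (33.9%). Just inside the limit, 12 vehicle and 3 fluconazole barcodes had 10 to 12 core UMIs, and just outside it 15 and 13 had 7 to 9.

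**Figure D1:**
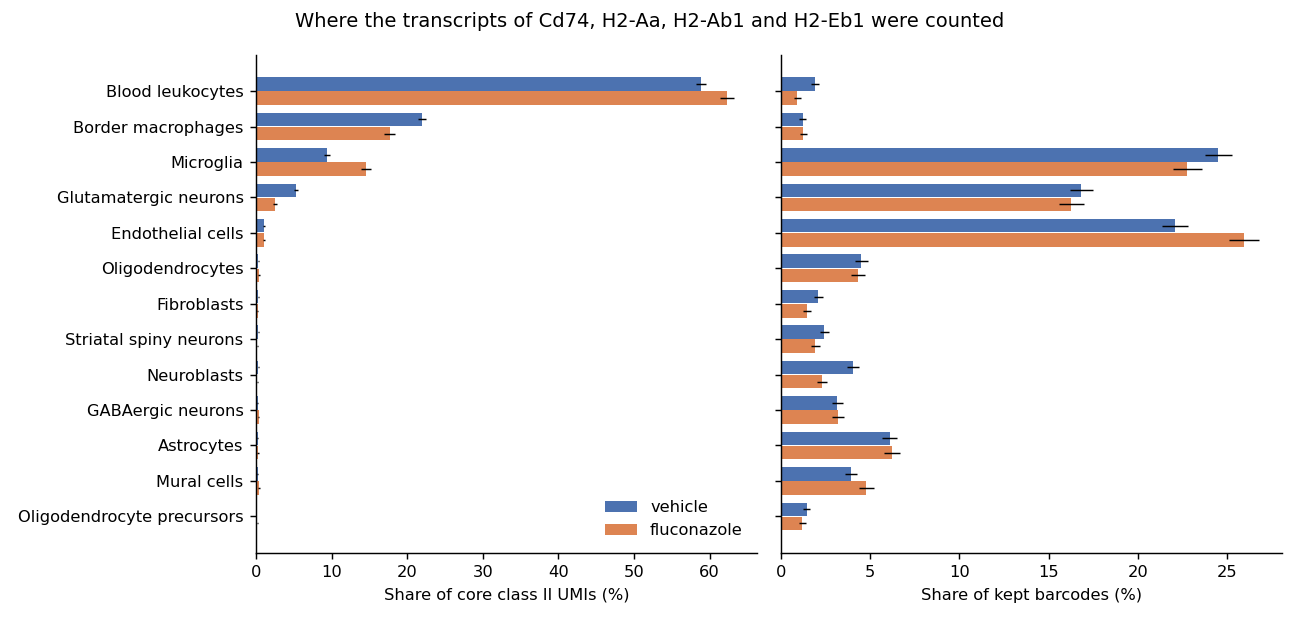
Share of each library's core class II UMIs (left, percent) and share of its kept barcodes (right, percent) by cell class, as bars for the vehicle and fluconazole libraries with exact binomial 95% intervals. Blood leukocytes hold 58.9% and 62.3% of the core UMIs, border macrophages 21.9% and 17.6% and microglia 9.37% and 14.6%, while leukocytes and border macrophages are short bars on the right.

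Blood leukocytes and border macrophages, the macrophages of the meninges and perivascular spaces, held most core UMIs although they were few. Leukocytes were 241 vehicle and 96 fluconazole barcodes, 1.87% and 0.905% of those kept, and held 58.9% and 62.3% of the core UMIs. Border macrophages were 154 and 130 barcodes (1.19% and 1.23%) and held 21.9% and 17.6%. Microglia, with 3160 and 2416 barcodes, held 9.37% and 14.6%. Rich barcodes were found in the same 3 classes for the most part: 76 and 34 were leukocytes, 40 and 19 border macrophages and 15 and 5 microglia. The library-wide sum by itself does not separate fewer such cells from less class II RNA per cell. By class, leukocytes were a smaller share of the fluconazole barcodes, with a core sum of 12366 CPM with vehicle and 13289 CPM with fluconazole. Border macrophages were a similar share of both libraries, with 6524 and 2467 CPM.

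**Figure D2:**
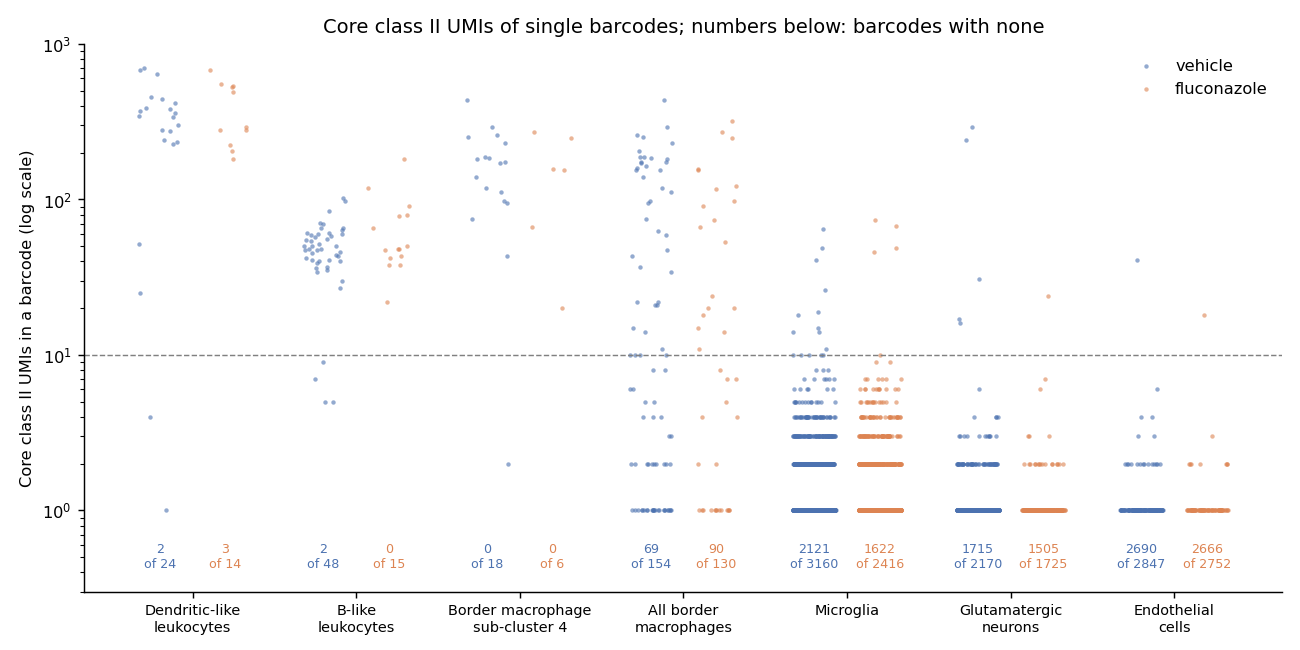
Core class II UMIs of single barcodes (vertical log axis, 1 point per barcode with at least 1 core UMI) in 7 sets of barcodes, by library, with the number of barcodes that had none printed below and the limit of 10 UMIs as a dashed line. Sub-cluster 4 is also part of all border macrophages, and the highest points, 698 UMIs with vehicle and 685 with fluconazole, are dendritic cell-like.

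Within leukocytes, dendritic cell-like and B cell-like barcodes carried the core genes. Dendritic cell-like barcodes (24 vehicle, 14 fluconazole), which had 7 of 10 dendritic cell markers and also 4 of 8 monocyte markers, held 56.1% and 62.0% of the leukocyte core UMIs. Their core sum was 40415 CPM with vehicle and 41724 CPM with fluconazole, and the log2 ratio of fluconazole over vehicle was 0.05 (-0.01 to 0.10). B cell-like barcodes (48 and 15), with all 10 B cell markers, had 19419 and 18448 CPM, a log2 ratio of -0.07 (-0.18 to 0.04). In both kinds the libraries thus lay within counting error of each other. Monocyte-like barcodes (23 and 19) had 3351 and 2215 CPM, of which a single barcode held 76.8% with vehicle and 49.4% with fluconazole. T and NK cell-like barcodes (79 and 37) held 8 and 2 core UMIs, which is the level to be read as background in this class. Neutrophil-like barcodes, 42 in the vehicle library and 3 in the fluconazole library, held 9 in the vehicle library.

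The invariant chain gene Cd74 stood at 17759 and 17085 CPM in the dendritic cell-like barcodes and at 9779 and 9065 CPM in the B cell-like ones. For the alpha chain gene H2-Aa the values were 9077 and 9836 CPM against 3797 and 3637 CPM. Each of the core genes was higher in dendritic cell-like than in B cell-like barcodes in both libraries. Of the DM genes, which edit the peptide, H2-DMa stood at 626 and 558 CPM in dendritic cell-like and at 381 and 410 CPM in B cell-like barcodes. H2-DMb1 stood at 395 and 607 CPM against 191 and 112 CPM. Ciita had 18 and 22 UMIs in the dendritic cell-like barcodes, or 101.5 and 215.5 CPM, and 7 and 6 UMIs in the B cell-like ones, too few to compare. A further leukocyte sub-cluster of 15 and 8 barcodes, which mixed T and NK cell, monocyte, dendritic cell and microglia markers and stayed unnamed, had 17790 and 17719 CPM and held 22.6% and 20.1% of the leukocyte core UMIs.

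Over all leukocytes the core sum was 12366 CPM with vehicle and 13289 CPM with fluconazole (log2 ratio 0.10, 0.06 to 0.15). Of the 7 members measured with at least 20 UMIs, 0 were lower in the fluconazole library, and so 0 by 2-fold. Of all genes measured in leukocytes, 50.9% were lower and 8.13% at least 2-fold lower. Cd74 had a log2 ratio of 0.03 (-0.04 to 0.09), and H2-Aa, H2-Ab1 and H2-Eb1 lay at 0.18, 0.14 and 0.16. H2-DMb1 stood at 138 and 178 CPM (0.37, -0.02 to 0.76) and Ciita at 38.8 and 59.9 CPM (0.63, -0.10 to 1.34). These pooled ratios depended on the makeup of the class. Without the neutrophil-like barcodes the core sum was 14064 and 13488 CPM, a log2 ratio of -0.06 (-0.10 to -0.02), and without the dendritic cell-like barcodes the ratio was -0.06 (-0.13 to 0.01). A core UMI was found in 44.4% of vehicle and 49.0% of fluconazole leukocytes, whose median depths were 3227 and 4725 UMIs. The shares were 39.5% and 41.3% after thinning each barcode to 1500 UMIs.

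**Figure D3:**
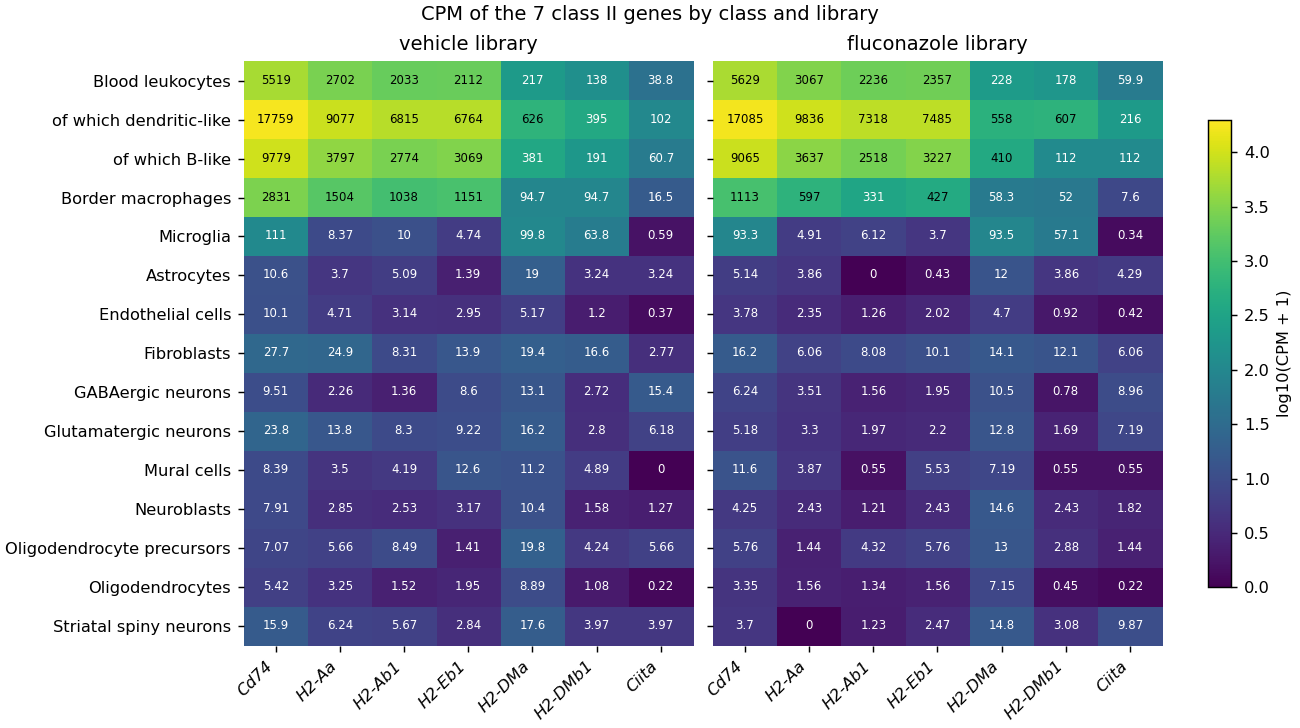
CPM of each of the 7 genes (columns) in each cell class and in 2 kinds of leukocyte (rows), as numbers and as colour on a log10(CPM + 1) scale, for the vehicle library (left) and the fluconazole library (right); 0 means no UMI. The core genes are highest in leukocytes and border macrophages, whereas H2-DMa in microglia (99.8 and 93.5 CPM) lies near its level in border macrophages (94.7 and 58.3 CPM).

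In border macrophages every measured class II gene was lower in the fluconazole library. Their core sum was 6524 CPM with vehicle and 2467 CPM with fluconazole (4754 and 1947 UMIs), which is 2.64-fold lower (log2 ratio -1.40, -1.48 to -1.33). Of 6 members measured, 6 were lower and 4 were at least 2-fold lower. Of all genes measured in the class, 48.5% were lower and 2.69% at least 2-fold lower. Cd74 stood at 2831 and 1113 CPM, a log2 ratio of -1.35 (-1.46 to -1.23). H2-Aa stood at 1504 and 597 CPM (-1.33, -1.49 to -1.18). The beta chain gene H2-Ab1 had the lowest ratio of these genes, at 1038 and 331 CPM (-1.65, -1.86 to -1.44), and the other beta chain gene H2-Eb1 stood at 1151 and 427 CPM (-1.43, -1.62 to -1.25). The DM genes were lower by less: H2-DMa at 94.7 and 58.3 CPM (-0.70, -1.27 to -0.14) and H2-DMb1 at 94.7 and 52.0 CPM (-0.87, -1.46 to -0.29). Ciita had 12 and 6 UMIs, too few to read.

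A core UMI was present in 55.2% of vehicle and 30.8% of fluconazole border macrophages, although the fluconazole barcodes were deeper (medians of 4497 and 5874 UMIs). After thinning to 1500 UMIs the shares were 42.0% and 20.7%. As background, 0.78% of vehicle and 0.62% of fluconazole GABAergic neurons held a Cd74 UMI after thinning, against 39.2% and 18.2% of border macrophages. Those neurons had median depths of 4778 and 6686.5 UMIs. No core UMI was found in 69 of 154 vehicle and in 90 of 130 fluconazole border macrophages. Rich barcodes were 40 of 154 (26.0%, 19.2 to 33.7%) and 19 of 130 (14.6%, 9.03 to 21.9%).

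A part of this difference went with 1 group of barcodes. Sub-cluster 4 of the border macrophages held 18 vehicle and 6 fluconazole barcodes, 11.7% and 4.62% of the class, and 64.1% and 47.3% of its core UMIs. Its leading genes included Ccr2, Slamf7, Tnip3, Lgals3, Lpl and Clec4b1, and since Ccr2 is a monocyte marker it stayed unnamed, although 7 of 10 border macrophage markers were found in it. Its core sum was 42368 and 31497 CPM, and 17 of 18 and 6 of 6 of its barcodes were rich. Without it the core sum of the class was 2599 and 1350 CPM, a log2 ratio of -0.94 (-1.06 to -0.83). Cd74, H2-Aa, H2-Ab1 and H2-Eb1 then lay between -1.03 and -0.89, while the intervals of H2-DMa (-0.30) and H2-DMb1 (-0.26) included 0. Among border macrophages with fewer than 10 core UMIs, which held 100 and 52 UMIs, the log2 ratio was -1.30 (-1.81 to -0.80). With mitochondrial UMIs limited to 2% the log2 ratio of the whole class was -2.00. The sub-clusters did not all share this direction. Sub-clusters 1, 7 and 8 had log2 ratios of 0.49, 1.55 and 1.40, whereas the other 8 of the 11 lay below 0. Of these, sub-clusters 0, 2 and 5 lay at -1.23, -1.63 and -2.12, and the lowest were sub-clusters 9 (-5.16, -10.49 to -2.61) and 10 (-5.03, -6.36 to -3.97), each with no more than 6 barcodes per library. The intervals of sub-clusters 3 and 6 included 0. Single fluconazole barcodes held 318 of 362, 18 of 26 and 122 of 220 core UMIs of sub-clusters 1, 7 and 8. A single barcode also held 188 of 237 vehicle UMIs of sub-cluster 0, and another 98 of 99 fluconazole UMIs of sub-cluster 2. No direction is therefore read for these sub-clusters.

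Class II-rich border macrophages also differed from the others in genes outside the pathway. Over both libraries, 59 barcodes were rich and 225 were not, with median depths of 4703 and 5067 UMIs. Lyve1, a marker of perivascular macrophages, had a UMI in 22.0% of the rich and 56.9% of the other barcodes, and Folr2, a folate receptor gene, in 32.2% and 44.4%. Ccr2, the chemokine receptor gene of recruited monocytes, had a UMI in 30.5% and 0.444%. Cd52 was found in 59.3% and 20.4%, and Clec12a in 52.5% and 28.0%. Of the markers of the class, Pf4 was found in 79.7% and 92.4%, at 2230 and 3849 CPM, and Mrc1 in 93.2% and 96.9%, at 2692 and 3272 CPM. Lyz2 was found in 98.3% and 93.3%. Sub-cluster 4 carried much of this contrast. It held 36 of the 43 Ccr2 UMIs of the rich barcodes, and Lyve1 was found in 0 of its 24 barcodes, which allows a share of up to 14.2%. Its Mrc1 and Pf4 stood at 850 and 346 CPM.

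Microglia held a low level of the core genes in many barcodes. The core sum was 134 CPM with vehicle and 108 CPM with fluconazole (log2 ratio -0.31, -0.40 to -0.21). Of 6 members measured, 6 were lower in the fluconazole library and 0 were at least 2-fold lower. Of all genes measured in microglia, 51.4% were lower and 1.69% at least 2-fold lower. Cd74 stood at 111 and 93.3 CPM and lay above every class except leukocytes and border macrophages in both libraries. H2-Aa (8.37 and 4.91 CPM, -0.77, -1.20 to -0.34) and H2-Ab1 (10.0 and 6.12 CPM, -0.71, -1.10 to -0.33) had the lowest ratios. H2-DMa, at 99.8 and 93.5 CPM, had a log2 ratio of -0.09 (-0.20 to 0.01), and H2-DMb1, at 63.8 and 57.1 CPM, one of -0.16 (-0.29 to -0.02). H2-Aa and H2-Ab1 were thus lower by more than the DM genes, and by counting error alone their intervals do not overlap those of H2-DMa and H2-DMb1. These intervals are too narrow, as 15 vehicle and 5 fluconazole rich barcodes held 36.2% and 61.6% of the microglial H2-Aa UMIs. For H2-Ab1 they held 25.7% and 37.4%. Among microglia with fewer than 10 core UMIs the ratios of H2-Aa and H2-Ab1 were -1.51 and -0.96, but H2-Aa then stood at 5.37 and 1.89 CPM. That is near its level in endothelial cells (4.71 and 2.35 CPM) and oligodendrocytes (3.25 and 1.56 CPM), so no microglial difference is read from it. Endothelial H2-Ab1 was lower with fluconazole as well (3.14 and 1.26 CPM). How much of the microglial ratios, that of the core sum included, goes with this lower level in other classes was not tested. A lower core sum with fluconazole was found in each of the 3 microglial clusters: 122 and 107 CPM in the largest, 97.9 and 75.2 CPM in the next, and 264 and 181 CPM in the cluster led by the chemokine genes Ccl4 and Ccl3.

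**Figure D4:**
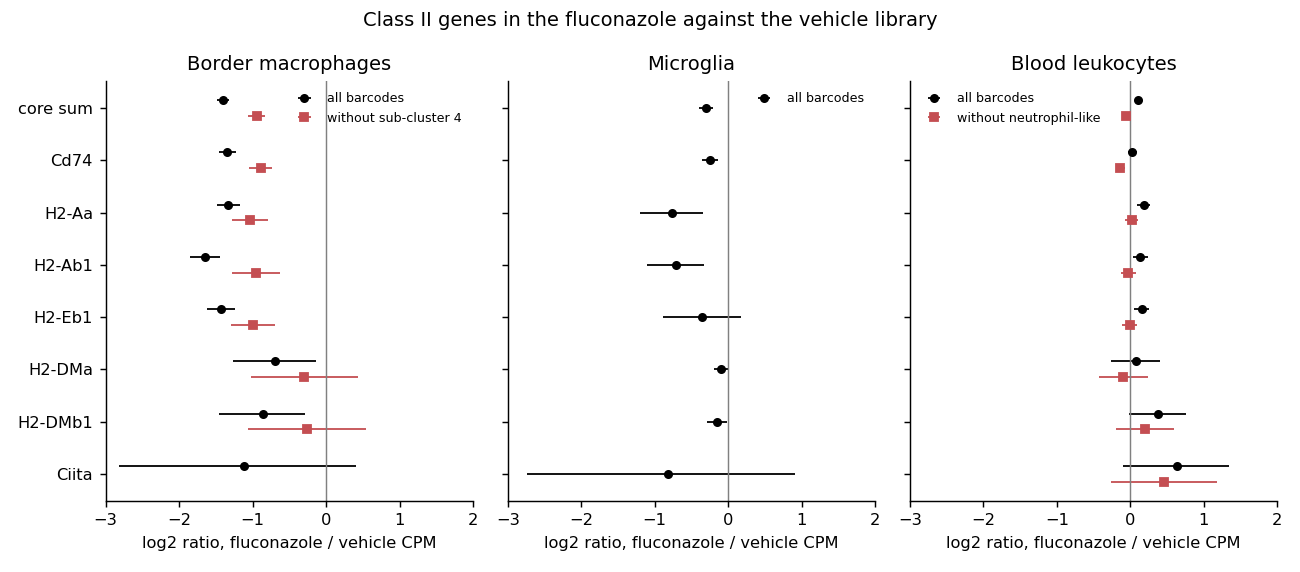
Log2 ratio of fluconazole over vehicle CPM (horizontal axis) for the core sum and each gene in border macrophages, microglia and blood leukocytes, with exact conditional binomial 95% intervals, for all barcodes (black) and without sub-cluster 4 or the neutrophil-like barcodes (red squares). In border macrophages the core genes lie between -1.65 and -1.33, and without sub-cluster 4 between -1.03 and -0.89.

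Cd74 was found in 28.5% of vehicle and 30.3% of fluconazole microglia, whose barcodes had medians of 4592 and 5991 UMIs, and in 12.1% and 11.0% after thinning. H2-DMa was found in 36.0% and 42.8%, and in 13.3% and 12.5% after thinning. For oligodendrocytes, with deeper barcodes (7320 and 8914 UMIs), the shares were 4.31% and 3.06% for Cd74 and 6.90% and 6.35% for H2-DMa. The unthinned shares of microglia were higher in the fluconazole library and the thinned shares and CPM lower, so the unthinned order carries no reading.

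The makeup of the class II transcripts in microglia differed from that in the other carriers. In microglia over both libraries Cd74 made up 84.3% of the core UMIs (83.1 to 85.5%), against 43.8% in leukocytes and 43.9% in border macrophages. For every 100 core UMIs microglia held 79.9 UMIs of H2-DMa (76.0 to 83.9), while leukocytes held 1.74 and border macrophages 1.72. Classes with little class II had H2-DMa ratios near that of microglia, among them oligodendrocytes at 80.2, neuroblasts at 82.6, striatal spiny neurons at 83.3 and astrocytes at 103, so it does not set microglia apart from them. For H2-DMb1 the values were 49.96 in microglia, 1.19 in leukocytes, 1.64 in border macrophages, 7.69 in oligodendrocytes and 23.9 in astrocytes. Microglia thus held the invariant chain and DM transcripts with few chain transcripts. The 20 rich microglial barcodes held 45.5% of the H2-Aa, 30.04% of the H2-Ab1 and 40.2% of the H2-Eb1 UMIs of microglia, but 11.5% of Cd74, 0.55% of H2-DMa and 0.83% of H2-DMb1. In the remaining microglia Cd74 made up 88.4% of the core. A high Cd74 share was seen in poor barcodes of the other carriers as well: it was 75.7% in border macrophages and 74.5% in leukocytes with fewer than 10 core UMIs. The H2-DMa contrast was also much smaller there. Such border macrophages held 18 vehicle and 19 fluconazole H2-DMa UMIs beside 100 and 52 core UMIs. Such leukocytes held 24 and 10 beside 79 and 31, and such microglia 1503 and 1387 beside 1710 and 1360.

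**Figure D5:**
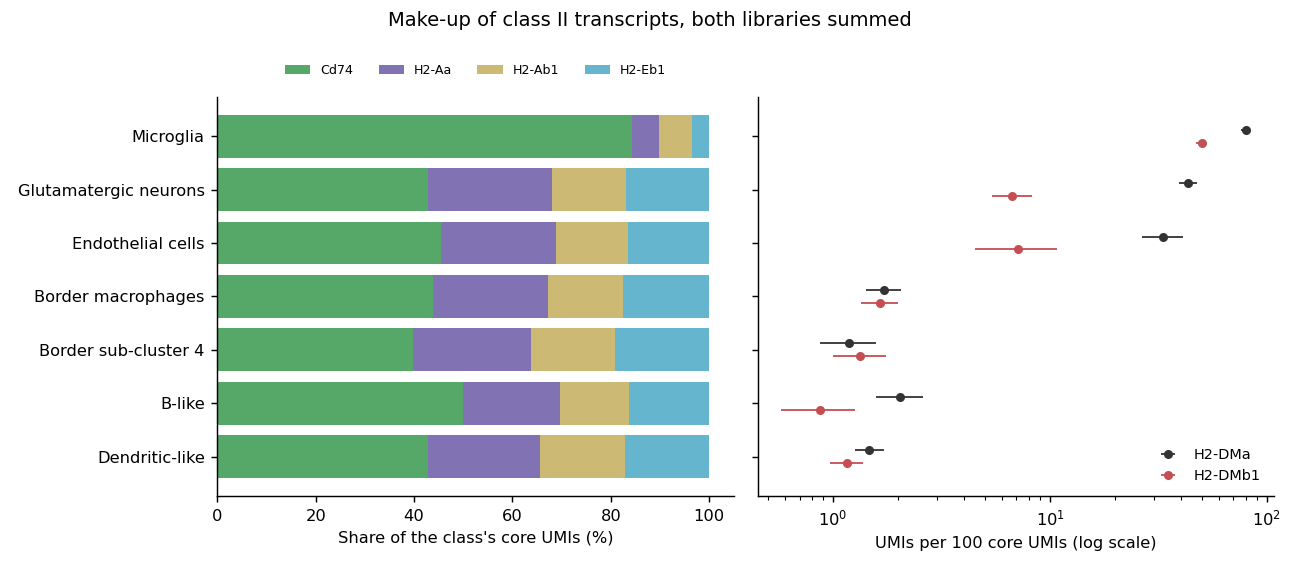
Left, makeup of the core class II UMIs in percent for Cd74, H2-Aa, H2-Ab1 and H2-Eb1 in 7 sets of barcodes, both libraries summed. Right, UMIs of H2-DMa and H2-DMb1 for every 100 core UMIs (log axis, 95% intervals): Cd74 is 84.3% of the core in microglia and 43.9% in border macrophages, and H2-DMa is at 79.9 in microglia and 1.72 in border macrophages.

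The remaining 10 classes carried little. Pooled, their core sum was 35.9 CPM with vehicle and 11.7 CPM with fluconazole, and among their barcodes with fewer than 10 core UMIs it was 22.5 and 10.3 CPM, a log2 ratio of -1.13 (-1.28 to -0.97). The lower level in the fluconazole library was seen across classes that are not known for class II: endothelial cells stood at 20.9 and 9.41 CPM, astrocytes at 20.8 and 9.43 CPM and striatal spiny neurons at 30.6 and 7.40 CPM. How much of it is free RNA was not tested. Glutamatergic neurons stood at 55.1 and 12.6 CPM (log2 ratio -2.12), but 1 vehicle barcode held 291 of their UMIs. Below 10 core UMIs their ratio was -1.20, and with the called doublets kept it was 0.28.

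The UMIs of Ciita were spread over the classes differently from those of the core genes. Of 525 Ciita UMIs in all, glutamatergic, GABAergic and spiny neurons held 65.5% with vehicle and 73.4% with fluconazole, but 5.74% and 2.92% of the core UMIs. Leukocytes, border macrophages and microglia held 23.6% and 15.7% of the Ciita and 90.2% and 94.5% of the core UMIs. Such shares also follow the number and depth of the barcodes in a class. Glutamatergic neurons alone were 16.8% and 16.3% of the kept barcodes and microglia 24.5% and 22.8%. The share of all UMIs in these classes is not given here, so no excess of Ciita in neurons is read from the shares. In CPM, Ciita stood highest in leukocytes (38.8 and 59.9 CPM). GABAergic neurons had 15.4 and 8.96 CPM, from 34 and 23 UMIs, and glutamatergic neurons 6.18 and 7.19 CPM. Border macrophages had 16.5 and 7.60 CPM, from 12 and 6 UMIs, and striatal spiny neurons 3.97 and 9.87 CPM, from 7 and 16 UMIs.

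In single barcodes of leukocytes and border macrophages, Ciita was found together with the core genes. All 43 leukocytes and all 14 border macrophages with a Ciita UMI also held a core UMI, against 37.8% and 41.1% of the other barcodes of those classes, although the border macrophages had only 18 Ciita UMIs. The leukocytes with Ciita were deeper than the others (medians of 6442 and 3339 UMIs), and the border macrophages were not (4905 and 4968). Leukocytes also include T and NK cell-like and neutrophil-like barcodes, which held few core UMIs. In microglia 5 of 14 barcodes with Ciita (35.7%) held a core UMI, against 32.9% of the others. Among GABAergic neurons 6 of 50 barcodes with Ciita held a core UMI, against 9.55% of the others. Among glutamatergic neurons 70 of 260 (26.9%) did, against 16.6%, and their median depths were 11974 and 8966 UMIs. Most neurons with a Ciita UMI thus held no UMI of the 4 core genes. Over both libraries Dexi, which overlaps Ciita on the other strand, stood at 37.1 CPM in GABAergic neurons and 15.5 CPM in leukocytes, and its part in the Ciita counts was not tested. Dexi was named for its position, after its values had been seen.

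In border macrophages the other pathway genes lay near the median of all genes. Of 31 listed genes for further class II chains, promoter-binding factors, endosomal proteases, turnover and co-stimulation, 23 had at least 20 UMIs there. Of these, 14 were higher and 9 lower in the fluconazole library, 0 by 2-fold, with a median log2 ratio of 0.04 beside 0.01 for all genes of the class. Ctss, the cathepsin that trims the invariant chain, stood at 983 and 952 CPM, and the co-stimulatory gene Cd86 at 2038 and 2176 CPM. Of the factors, Spi1 (PU.1) stood at 295 and 266 CPM and Irf8 at 273 and 236 CPM, both with intervals that include 0 (-0.43 to 0.13 and -0.51 to 0.08).

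In leukocytes 25 of the 31 were measured, 19 higher and 6 lower, with a median of 0.13 beside -0.003 for all genes. Among them were Ctss at 440 and 640 CPM (0.54, 0.33 to 0.75), Cd86 at 379 and 536 CPM (0.50, 0.27 to 0.73) and Marchf1, a ubiquitin ligase for class II, at 140 and 207 CPM (0.57, 0.19 to 0.94). These leukocyte ratios are pooled over a class whose makeup differed, and they were not computed by kind of leukocyte. Neutrophil-like barcodes were 42 of 241 with vehicle and 3 of 96 with fluconazole, and monocyte-like ones 9.54% and 19.8% of the class. In microglia 30 were measured, 14 higher and 16 lower, with a median of -0.02 beside -0.007 for all genes. The co-stimulatory genes Cd80 (42.4 and 57.6 CPM, 0.44) and Icosl (26.5 and 34.4 CPM, 0.37) were higher there. Cd40 alone was at least 2-fold lower, from 24 and 11 UMIs. The DO genes H2-Oa and H2-Ob, whose product restrains DM, had 41 and 19 and 54 and 21 UMIs in leukocytes, and 163 and 188 and 191 and 201 UMIs in microglia. H2-Ea, the second alpha chain gene, had 1 UMI in each library's leukocytes.

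Across the 26 profiles of 13 classes in both libraries, the genes most like the core sum by Pearson's r of log2(CPM + 1) were Lilrb4a (0.958), Lilrb4b (0.958), Ccr2 (0.955), Irf4 (0.955) and Clec7a (0.951), of 16433 genes with at least 200 UMIs. The next were Lyz2, Ifi209, Cd209a, AI662270 and Ctse, down to 0.942. Cd74, which is part of the sum, had an r of 0.995, and outside the sum H2-DMb1 had 0.902, H2-DMa 0.885 and Ciita 0.626. Cd209a stood at 141 and 153 CPM in leukocytes and at 61.8 and 78.6 CPM in border macrophages. Profiles of the same library share its depth and free RNA, so these values are a description.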

How the data were processed

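The deposited files hold counts: each value is a whole number of UMIs for 1 gene in 1 barcode, per the file headers, and nothing was normalized. The matrix headers name Cell Ranger 8.0.1. The submitters' processing notes list R 4.0.3 and Seurat 4.0.0 beside Cell Ranger 9.0.0, with mm10 as genome. How introns and strand were handled and how barcodes were called is not given in the sources used here. The files held 14924 vehicle and 12637 fluconazole barcodes with 76891692 and 78380009 UMIs.

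A barcode was kept if it had 500 genes or more and no more than 5% mitochondrial UMIs. Scrublet in scanpy 1.11.5 (expected rate 8%) called 617 (4.13%) and 517 (4.09%) doublets, which were left out, leaving 86.4% and 84.0% of barcodes. Both libraries were clustered together without the class II genes and without batch correction (2000 variable genes per library, 30 components, 15 neighbours, Leiden resolution 1, leidenalg 0.10.2, Python 3.11.15). A cluster was named from 3 or more markers, each 2-fold higher or more and seen in 10% or more of the cluster. Leukocytes and border macrophages were clustered again, and sub-clusters with leading markers of another class stayed unnamed.

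UMIs were summed per class and library and scaled to CPM. Intervals at 95% are exact Poisson (CPM), exact Clopper-Pearson (shares) and exact conditional binomial (ratios), and the script for ratios was tested on simulated data. Genes with at least 20 UMIs in a class counted as measured. The named genes are the 7 members, 31 listed pathway genes, 9 border macrophage genes and the 10 genes most like the core sum. Dexi, other genes that overlap a member and the leading genes of sub-clusters were named in addition. The members and lists were chosen with earlier results of these data known. Alternatives covered filters, doublets, thinning, the top barcode and the class II genes in clustering, and those that leave out sub-clusters or rich barcodes were chosen after seeing the data.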

Additional observations from a re-analysis of the deposited data

Results flagged for a closer look

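Called doublets were used in no comparison, and those of the fluconazole library held a high level of the core genes. Their core sum was 257 CPM (244 to 271) over 466 barcodes, against 65.4 CPM (58.9 to 72.4) over 573 called doublets of the vehicle library. It was noted because it is a signal outside the main measurement that lies above the level in the vehicle library. In the fluconazole library 5 doublets with at least 10 core UMIs, all nearest to glutamatergic neurons, held 1243 of the 1398 core UMIs (88.9%), and the highest held 571 and 324.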

How the results depend on the processing

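No paired analysis was possible because each treatment has 1 library. For leukocytes the core log2 ratio of 0.10 was 0.055 with at least 1000 genes per barcode, 0.051 with at most 2% mitochondrial UMIs, 0.047 with doublets kept, 0.059 without the top barcode, 0.17 as a mean over barcodes, 0.23 after thinning and 0.034 without the unnamed sub-clusters. It turned to -0.057 without the dendritic cell-like barcodes, to -0.060 without the neutrophil-like barcodes and to -0.31 below 10 core UMIs. Under those 3 alternatives H2-Ab1 turned to -0.079, -0.028 and -1.28 and H2-Eb1 to -0.066, -0.0055 and -2.13. For border macrophages the ratio of -1.40 was -2.00 with at most 2% mitochondrial UMIs, -1.51 without the top barcode, -1.49 after thinning, -0.94 without sub-cluster 4, -1.63 without all unnamed sub-clusters and -1.30 below 10 core UMIs. For microglia it moved by less than its counting interval under every alternative run. In glutamatergic neurons doublets kept turned the core ratio to 0.28 and Cd74, H2-Aa, H2-Ab1 and H2-Eb1 to 0.17, 0.19, 0.54 and 0.44.

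With at most 2% mitochondrial UMIs the shares of the core UMIs were 58.2% and 59.8% in leukocytes, 19.4% and 12.02% in border macrophages and 11.6% and 21.4% in microglia (vehicle, then fluconazole). With doublets kept leukocytes held 57.9% and 55.3%, and fluconazole border macrophages and microglia 15.7% and 13.2%. With the class II genes among those clustered, fluconazole leukocytes held 63.3%, fluconazole border macrophages 16.8% and vehicle microglia 8.87%. At a limit of 5 core UMIs, 104 fluconazole barcodes were rich. The cause of these changes was not tested. Differences between mice, dissections and libraries are outside every interval, and genes below 20 UMIs in a class were left out of the counts of genes.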
